A study of Homo sapiens with 14 samples.

Results

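The clustered miRNAs miR-183, miR-96 and miR-182 were followed through 14 small RNA libraries of PANC-1 cells, a long-established line derived from a human pancreatic ductal carcinoma. Its members were found by name in the table of read counts: hsa-miR-183-5p, hsa-miR-96-5p and hsa-miR-182-5p, 3 of 2848 entries. All 3 were among the 810 entries with enough counts to be tested. The members were chosen by their difference between treated and control cells at 12 h, so every comparison of the 12 h libraries is a description here, with no test. Those libraries still entered the single fit, and so its scaling, filter and estimate of spread, behind the tests at the other times. Treated cells received grape proanthocyanidins (PA, plant polyphenols built from flavan-3-ol units) at 20 µg/ml, and control cells received DMSO, the vehicle. There were 7 groups, each with a library A and a library B. DMSO was sampled after 0, 3, 12 and 24 h of exposure and PA after 3, 12 and 24 h. All groups were the same line in serum-containing medium, no group was left without vehicle or PA, and PA had no library at 0 h. The design text speaks of a biological replicate, but the labels do not tie A and B to separate cultures. The p-values below therefore measure the spread between these libraries, which may be in part technical.

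A microRNA guides a repressor complex to messenger RNAs that pair with its seed, bases 2 to 8 from the 5′ end. The 3 members are processed from a shared primary transcript, are best known from the sensory cells of the ear, eye and nose, and are often high in carcinomas. Seed mutations of miR-96 cause hereditary hearing loss. FOXO1, a transcription factor that restrains growth, is a known target of miR-96 and miR-182. ZEB1, a repressor of the epithelial state, holds down miR-183 and the miR-200 family.

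The mature sequences are shown because the seeds decide which members can share targets. They are from RefSeq (GRCh38.p14), read 5′ to 3′, with the seed in capitals. The last line is the only other human mature miRNA in that table with the seed of a member.
miR-183-5p: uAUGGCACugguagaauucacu
miR-96-5p: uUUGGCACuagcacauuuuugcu
miR-182-5p: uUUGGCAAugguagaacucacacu
miR-1271-5p: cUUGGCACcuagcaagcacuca
No 2 members had the same 7-base seed. miR-96-5p and miR-182-5p were identical over bases 2 to 7, that is 6 bases, and parted at base 8. The seed of miR-183-5p matched 6 of 7 bases of the miR-96-5p seed and 5 of 7 of the miR-182-5p seed. Over the whole sequences, seed included, miR-183-5p and miR-182-5p matched at 18 of 22 positions and shared the run UGGUAGAA. miR-183-5p matched miR-96-5p at 13 of 22 positions, and miR-96-5p matched miR-182-5p at 12 of 23. Of 2370 mature sequences in the table, the seed of miR-183-5p was found in 1, that of miR-182-5p in 1, and that of miR-96-5p in 2, itself and miR-1271-5p. miR-96-5p was the richest of the 3 in U, with 10 of 23 bases, against 7 of 22 in miR-183-5p and 7 of 24 in miR-182-5p.

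The 3 hairpins lie within 4632 nt on the minus strand of chromosome 7. The mature arms are at chr7:129774967-129774988 (miR-183-5p), chr7:129774739-129774761 (miR-96-5p) and chr7:129770447-129770470 (miR-182-5p). The gap between the MIR183 and MIR96 hairpins is 135 nt, and that between MIR96 and MIR182 is 4199 nt. In GENCODE 29 (GRCh38), the 3 miRNA genes were the only annotated genes that overlapped this span, so no host exon or intron is annotated for them. The nearest genes were the lincRNA AC084864.1 at 8355 nt on the same strand and the protein-coding NRF1 at 13300 nt on the opposite strand. The 2 hairpins with a sequence in the RefSeq table are shown with the 5p arm, the arm that the members come from, in capitals.
MIR96: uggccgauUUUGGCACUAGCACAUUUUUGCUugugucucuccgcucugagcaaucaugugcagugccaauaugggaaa
MIR182: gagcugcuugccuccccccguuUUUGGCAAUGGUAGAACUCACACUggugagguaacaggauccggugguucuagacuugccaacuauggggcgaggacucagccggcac

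Library totals ran from 1032391 to 3111014 counts, with a median of 2076388. The miRNAs listed for carcinoma lines (miR-196a-5p, miR-221-3p, miR-100-5p and miR-21-5p) summed to between 269808 and 358245 CPM in every library. CPM is the usual depth-scaled read count, with the library total multiplied by its TMM factor. Most of this sum was miR-21-5p (mean 186226 CPM) and miR-100-5p (mean 112345 CPM). The sum does not by itself mark carcinoma identity. Markers of haematopoietic cells summed to 2.09 to 7.56 CPM, of acinar and islet cells to 2.17 to 10.2, of neurons and sensory tissue to 0 to 8.22, and miR-122-5p of liver to 0 to 1.17. The 5 fibroblast and endothelial markers summed to 395 to 843 CPM, of which the endothelial miR-126-3p made up a mean of 583, and that sum was lowest in the DMSO 12 h libraries (443 and 395 CPM). The DMSO 12 h pair was the least alike: its Spearman correlation over entries (0.925) was the lowest of the 7 pairs, with DMSO 0 h next (0.942). Its chi-square per degree of freedom (78) was the highest. The PA 12 h pair was next on that measure (59.6), and the remaining pairs had 13 to 36.3.

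miR-96-5p was the most abundant of the 3 members, with a mean of 4505 CPM over the 14 libraries, and ranked 32nd of all entries. miR-183-5p averaged 1934 CPM (rank 49) and miR-182-5p averaged 1557 CPM (rank 63). CPM has no length correction, and the 3 products differ by at most 2 nt. All 3 were read in every library, with 136602 counts of miR-96-5p, 56654 of miR-183-5p and 45271 of miR-182-5p in total. The lowest count of any member in a library was 1032.

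miR-183-5p, which gives the cluster its usual short name, stood highest in the later PA libraries. In DMSO, libraries A and B had 1523 and 1451 CPM at 0 h, 1386 and 1818 at 3 h, 1268 and 1006 at 12 h, with 1919 and 1656 at 24 h. In PA they had 1625 and 1897 CPM at 3 h, 2123 and 3291 at 12 h, with 3539 and 2570 at 24 h. All 4 PA libraries of 12 and 24 h were above all 10 other libraries, and the DMSO 12 h pair was below the rest. From low to high, the group means were DMSO 12 h (1137 ± 186, SD, n = 2 here and below), DMSO 0 h (1487 ± 50.6), DMSO 3 h (1602 ± 305), PA 3 h (1761 ± 192), DMSO 24 h (1787 ± 186), PA 12 h (2707 ± 826) and PA 24 h (3055 ± 685). Neighbours from DMSO 0 h to DMSO 24 h overlapped, as did PA 12 h and PA 24 h.

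miR-96-5p, the member with the widest spread, ran from 938 to 8951 CPM. In DMSO it had 3371 and 2726 CPM at 0 h, 4055 and 5250 at 3 h, 1639 and 938 at 12 h, with 5209 and 4293 at 24 h. In PA it had 4080 and 4518 CPM at 3 h, 5815 and 7726 at 12 h, with 8951 and 4496 at 24 h. The DMSO 12 h pair was lowest and the DMSO 0 h pair next, neither overlapping its neighbour. PA 24 h B lay among the DMSO 24 h libraries while PA 24 h A was the highest library of all. The means were DMSO 12 h 1289 ± 495, DMSO 0 h 3048 ± 456, PA 3 h 4299 ± 310, DMSO 3 h 4653 ± 845, DMSO 24 h 4751 ± 648, PA 24 h 6723 ± 3150 and PA 12 h 6771 ± 1351. From PA 3 h upward each group overlapped the next.

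miR-182-5p moved within the narrowest range, 1109 to 1895 CPM. In DMSO it had 1586 and 1362 CPM at 0 h, 1650 and 1732 at 3 h, 1275 and 1109 at 12 h, with 1381 and 1314 at 24 h. In PA it had 1763 and 1786 CPM at 3 h, 1685 and 1866 at 12 h, with 1895 and 1393 at 24 h. The DMSO 12 h pair was again lowest, and the PA 24 h pair spanned most of the range of the other groups. The means were DMSO 12 h 1192 ± 118, DMSO 24 h 1348 ± 47.4, DMSO 0 h 1474 ± 158, PA 24 h 1644 ± 355, DMSO 3 h 1691 ± 57.8, PA 3 h 1774 ± 16.5 and PA 12 h 1775 ± 128. Groups from DMSO 24 h to DMSO 3 h overlapped their neighbours in this order.

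**Figure D1:**
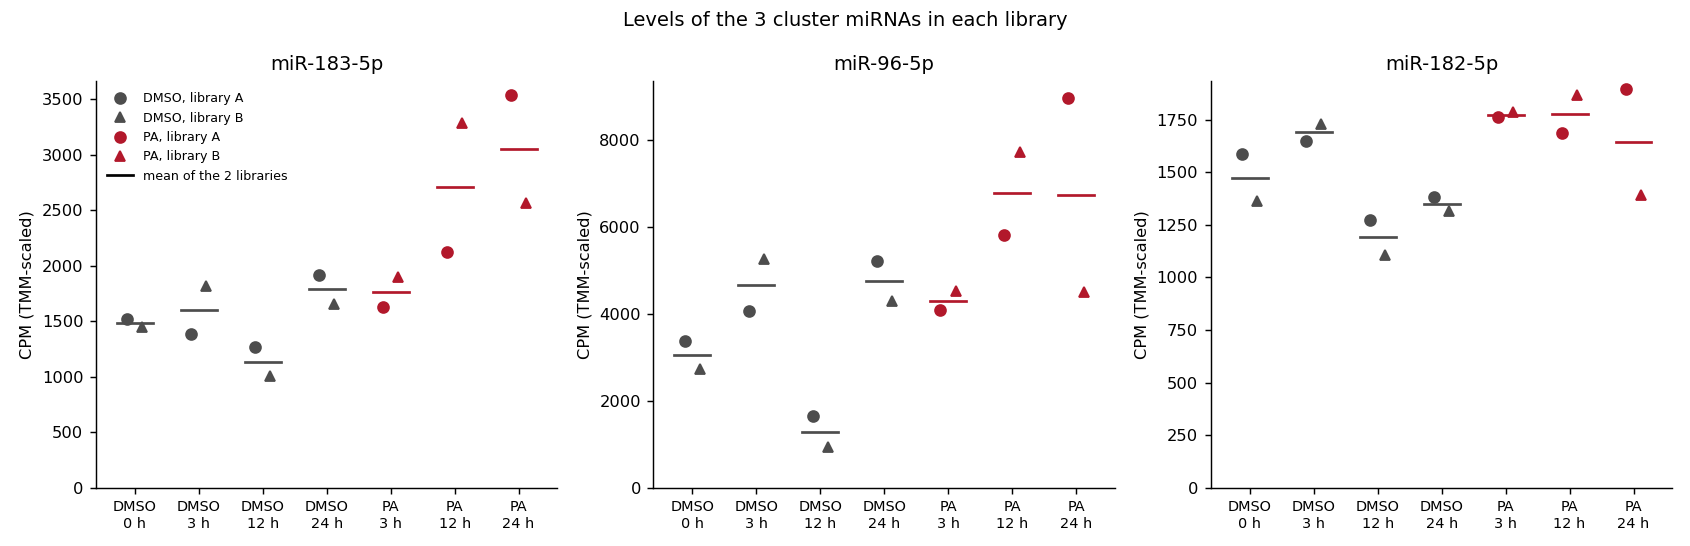
Level of each member in every library, in TMM-scaled CPM on linear axes that start at 0 and differ between panels. Circles are library A, triangles library B, and horizontal lines the mean of the 2 libraries of a group (DMSO grey, PA red). The DMSO 12 h pair is lowest in each panel, and miR-183-5p is highest in the PA 12 h and PA 24 h libraries.

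At 3 h of PA the levels of the 3 members were close to those in DMSO. The ratio of the PA mean to the DMSO mean was 1.10 for miR-183-5p, 0.924 for miR-96-5p and 1.05 for miR-182-5p. Log2 fold changes were 0.14 ± 0.22 (SE), -0.11 ± 0.29 and 0.07 ± 0.17. None passed in the edgeR quasi-likelihood test (Benjamini-Hochberg adjusted p = 1 for each), where 2 of the 810 entries passed (0.247%). Of the 3 members, 0 had an unadjusted p under 0.05 (1.73% of all entries did), and 0 passed with DESeq2 or with limma on the deposited TPM. The libraries of miR-182-5p did not overlap at 3 h, 1763 CPM being the lower PA value and 1732 CPM the higher DMSO value. With so few libraries such a separation carries little weight, and its share over all entries was not counted. With bulk RNA, a change per cell and a change in the share of cells that make the miRNA cannot be told apart, here or below.

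At 24 h of PA all 3 members had higher means than in DMSO, and miR-183-5p came closest to passing. Its PA libraries (3539 and 2570 CPM) were both above its DMSO libraries (1919 and 1656 CPM), with a log2 fold change of 0.77 ± 0.22, a ratio of 1.71. Its unadjusted p was 0.00343 and its edgeR adjusted p was 0.0506, just over the threshold of 0.05. For miR-96-5p the log2 fold change was 0.50 ± 0.30 (edgeR adjusted p = 0.357) and for miR-182-5p it was 0.29 ± 0.17 (adjusted p = 0.357). The miR-96-5p libraries overlapped between the groups. Thus 0 of 3 members passed, where 54 of 810 entries did (6.67%). 1 of 3 had an unadjusted p under 0.05, as did 20.9% of all entries. The median log2 fold change was 0.50 over the 3 members and -0.01 over all 810 entries. Of the 4 miRNAs listed for carcinoma lines, 1 passed in edgeR, miR-100-5p (log2 fold change 0.56 ± 0.15, adjusted p = 0.0321). With limma 0 of these 4 passed.

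The call on miR-183-5p at 24 h turned on settings. It passed with DESeq2 (log2 fold change 0.81, adjusted p = 0.0111) and without the 12 h libraries in edgeR (0.82, adjusted p = 0.00877), but not with limma on the deposited TPM (0.58, adjusted p = 0.104) or with edgeR on total counts (0.58, adjusted p = 0.105). The miR-96-5p value rested on PA 24 h A: without that library its log2 fold change was -0.06 and without PA 24 h B it was 0.94. For miR-182-5p the same 2 omissions gave 0.07 and 0.52. PA 24 h A was the deeper library of its pair (2816062 against 1236935 counts) and had the lowest TMM factor of the series (0.886). In deposited TPM, which carries no such factor, the 24 h values of miR-182-5p overlapped between PA (1679 and 1340) and DMSO (1463 and 1360).

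Over 3 and 24 h together, the mean PA log2 fold change was 0.46 for miR-183-5p (edgeR adjusted p = 0.176), 0.19 for miR-96-5p (adjusted p = 0.729) and 0.18 for miR-182-5p (adjusted p = 0.582). Again 0 of 3 passed, against 11 of 810 entries (1.36%). 1 member, miR-183-5p, had an unadjusted p under 0.05 (0.0112), as did 13.1% of all entries, and 0 passed with DESeq2 or limma. The PA effect was larger at 24 h than at 3 h by 0.64 ± 0.32 for miR-183-5p, 0.62 ± 0.42 for miR-96-5p and 0.22 ± 0.24 for miR-182-5p on the log2 scale. These differences did not pass in edgeR (adjusted p = 0.446, 0.669 and 0.806), where 10 of 810 entries passed (1.23%). Of the 3 members, 0 had an unadjusted p under 0.05 for this difference (12.5% of all entries did), and 0 passed with DESeq2 or limma.

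In vehicle alone, miR-96-5p had higher means at 3 and 24 h than at 0 h. The log2 fold change was 0.61 ± 0.30 at 3 h (edgeR adjusted p = 0.574) and 0.64 ± 0.30 at 24 h (adjusted p = 0.272). For miR-183-5p these values were 0.11 ± 0.22 (adjusted p = 0.936) and 0.27 ± 0.22 (adjusted p = 0.569). For miR-182-5p they were 0.20 ± 0.17 (adjusted p = 0.706) and -0.13 ± 0.17 (adjusted p = 0.750). No member passed at 3 h, where 0 of 810 entries passed (0%) and 8.64% had an unadjusted p under 0.05, 0 of the 3 members among them. No member passed at 24 h, where 29 entries did (3.58%), and miR-96-5p was among the 17.8% of entries with an unadjusted p under 0.05 (0.0473). With DESeq2 and limma, 0 members passed at either time. In edgeR fits on only the 4 libraries compared, miR-96-5p passed at 3 h (log2 fold change 0.59, adjusted p = 0.0394) and at 24 h (0.58, adjusted p = 0.0345). Those fits called more entries in all, 17 against 0 at 3 h and 72 against 29 at 24 h. The comparisons at 3 and 24 h share the DMSO 0 h libraries.

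The 12 h values are those that drew attention to the cluster. PA over DMSO at 12 h gave log2 fold changes of 1.25 ± 0.23 for miR-183-5p, 2.39 ± 0.31 for miR-96-5p and 0.57 ± 0.17 for miR-182-5p, ratios of means of 2.38, 5.25 and 1.49. Each member's DMSO 12 h pair lay below all of its other 12 libraries. Against the mean of DMSO at 0, 3 and 24 h, DMSO 12 h was lower by log2 values of -0.51 ± 0.19 for miR-183-5p, -1.66 ± 0.27 for miR-96-5p and -0.33 ± 0.14 for miR-182-5p. Against the same DMSO mean, PA 12 h was higher by 0.74 ± 0.18, 0.73 ± 0.23 and 0.25 ± 0.14. For miR-96-5p the departure of DMSO 12 h was thus larger than that of PA 12 h. These contrasts share libraries with each other and are given side by side for that reason.

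**Figure D2:**
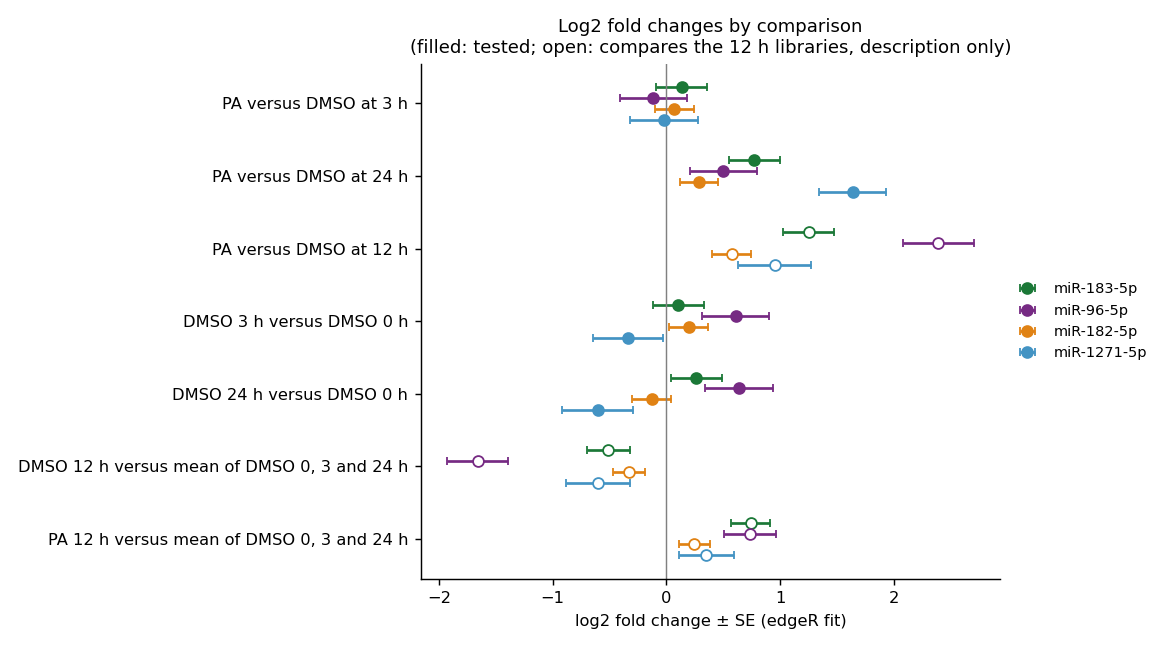
Log2 fold change with its standard error from the edgeR fit for the 3 members and miR-1271-5p, 1 row per comparison. Filled points are comparisons that were tested, open points compare the 12 h libraries and are a description. At 3 h the points lie near 0, at 24 h miR-1271-5p is highest at 1.64, and miR-96-5p stands lowest in DMSO 12 h at -1.66.

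The proportions of the 3 members within a library do not depend on how libraries are scaled, and they were not constant. The ratio of miR-96-5p to miR-183-5p counts was 1.29 and 0.933 in the DMSO 12 h libraries and between 1.75 and 2.92 in the other 12 (median 2.52). The ratio of miR-96-5p to miR-182-5p was 1.28 and 0.847 in DMSO 12 h and between 2.0003 and 4.72 elsewhere. So miR-96-5p was low in DMSO 12 h relative to the other members of its own transcript as well. The ratio of miR-182-5p to miR-183-5p in DMSO 12 h (1.01 and 1.10) lay within the range of the other libraries, 0.535 to 1.19.

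That last ratio was near 1 in DMSO at 0, 3 and 12 h and in PA at 3 h. It was 1.04 and 0.939 in DMSO 0 h, 1.19 and 0.953 in DMSO 3 h, and 1.08 and 0.942 in PA 3 h. It was lower in DMSO 24 h (0.720 and 0.794), in PA 12 h (0.794 and 0.567) and in PA 24 h (0.535 and 0.542). The PA pair was below the DMSO pair at 12 h and at 24 h, without overlap, while the pairs overlapped at 3 h. The PA 24 h pair was below every other library and its 2 values were nearly equal, although the levels of its libraries differed widely. The ratio of miR-96-5p to miR-183-5p at 24 h was 2.53 and 1.75 in PA and 2.71 and 2.59 in DMSO. These ratios were not tested, and how often ratios of other entries separate in this way was not counted.

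**Figure D3:**
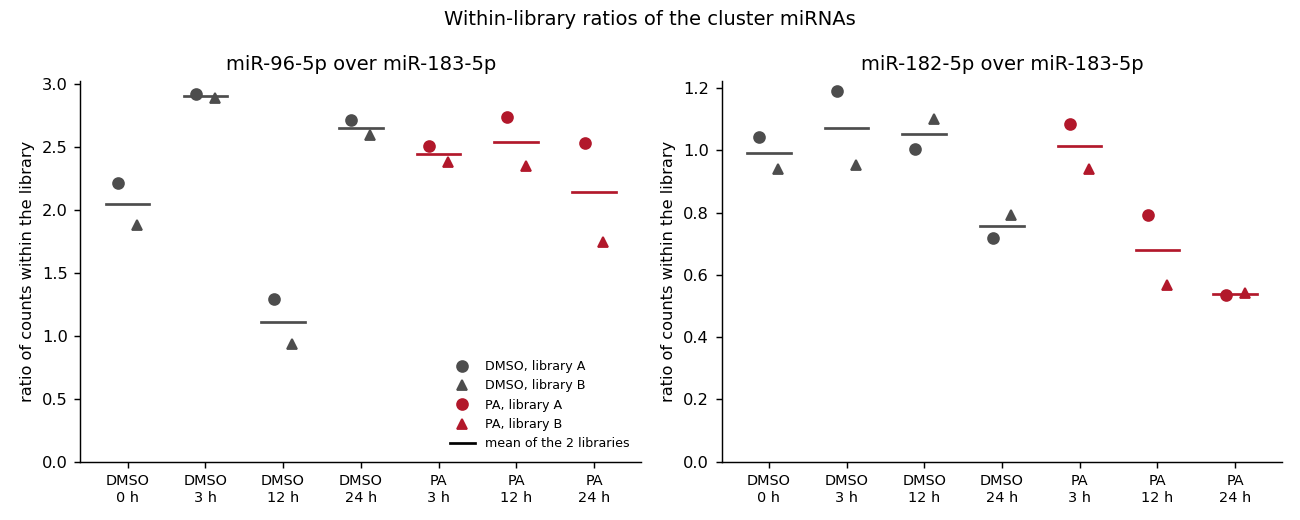
Ratio of counts within each library, miR-96-5p over miR-183-5p (left) and miR-182-5p over miR-183-5p (right), on linear axes that start at 0. Circles are library A, triangles library B, lines the arithmetic mean of the ratios of a group. The left ratio is lowest in DMSO 12 h (1.29 and 0.933) and the right ratio is lowest in PA 24 h (0.535 and 0.542).

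The opposite arms of the hairpins were scarce. miR-182-3p had 263 counts over the 14 libraries, a mean of 9.11 CPM. miR-183-3p had 51 counts in 13 libraries and miR-96-3p had 11 counts in 7, and neither had enough to be tested. For miR-182-3p the PA log2 fold change was 0.38 ± 0.48 at 3 h and -0.16 ± 0.53 at 24 h (edgeR adjusted p = 1 and 0.886), and 0.24 ± 0.51 at 12 h as a description. In DMSO 12 h, where miR-182-5p was lowest, miR-182-3p had 9.10 and 10.0 CPM, within its range of 3.72 to 16.2 CPM over all libraries. At these counts a change of the size seen for miR-182-5p was not detectable.

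miR-1271-5p, which has the seed of miR-96-5p and a different 3′ portion, rose at 24 h of PA. It comes from chromosome 5 (chr5:176367960-176367981, plus strand), inside the protein-coding gene ARL10 on the same strand, and overlaps 0 of its exons in GENCODE 29, so it is intronic. In DMSO it had 24.2 and 28.8 CPM at 0 h, 22.2 and 19.3 at 3 h, 14.2 and 13.6 at 12 h, with 13.9 and 20.8 at 24 h. In PA it had 23.0 and 18.3 CPM at 3 h, 23.7 and 30.3 at 12 h, with 46.9 and 62.2 at 24 h. The PA 24 h pair was above every other library and the DMSO 12 h pair was, with DMSO 24 h A, at the low end. The log2 fold change at 24 h was 1.64 ± 0.30 (edgeR adjusted p = 0.00424), and it was -0.02 ± 0.30 at 3 h (adjusted p = 1).

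The PA effect of miR-1271-5p did not pass as a difference between 24 and 3 h, 1.66 ± 0.42 on the log2 scale (edgeR adjusted p = 0.0809). Without DMSO 24 h A the rise at 24 h no longer passed (1.39, adjusted p = 0.0687). miR-1271-3p, the other arm of that hairpin, was looked at after the values of miR-1271-5p were seen. At 24 h miR-1271-3p had 5.33 and 8.23 CPM in DMSO and 24.1 and 58.9 CPM in PA (log2 fold change 2.57 ± 0.45, edgeR adjusted p = 0.00408). Its DMSO level was higher at 0 h, 14.9 and 16.4 CPM (24 h against 0 h: -1.20 ± 0.48, edgeR adjusted p = 0.185). At 12 h, as a description, the PA log2 fold change was -0.20 ± 0.47 for miR-1271-3p and 0.95 ± 0.32 for miR-1271-5p. Even at 24 h of PA, miR-1271-5p at 54.6 ± 10.8 CPM was far below miR-96-5p at 6723 ± 3150 CPM. The lowest miR-96-5p level in any library, 938 CPM, was above the highest miR-1271-5p level, 62.2 CPM.

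The miRNAs whose profile over the 14 libraries was most like that of a member were found by Pearson correlation of log2 CPM among 680 named entries. For miR-183-5p they were miR-500a-3p (r = 0.955), miR-27b-3p (0.922) and miR-501-3p (0.901). For miR-96-5p they were miR-188-3p (0.967), miR-23a-3p (0.949) and miR-377-3p (0.941). For miR-182-5p they were miR-9-5p (0.882), miR-23a-3p (0.873) and miR-516a-5p (0.858). By this measure the other members were not the nearest. In the order for miR-183-5p, miR-96-5p came 6th (r = 0.870) and miR-182-5p came 42nd (0.662), and between miR-96-5p and miR-182-5p r was 0.808. By Spearman correlation miR-183-5p with miR-96-5p gave 0.93, against 0.864, 0.837 and 0.837 for the entries named for miR-183-5p. The entries named for miR-96-5p gave 0.934, 0.868 and 0.903, and those for miR-182-5p gave 0.89, 0.965 and 0.736. On this measure miR-182-5p gave 0.675 with miR-183-5p and 0.763 with miR-96-5p. Without the DMSO 12 h libraries r was 0.875 for miR-183-5p with miR-96-5p, 0.439 for miR-183-5p with miR-182-5p and 0.594 for miR-96-5p with miR-182-5p (12 libraries). In those 12 libraries the entries named for miR-183-5p had r of 0.936, 0.904 and 0.951. Those named for miR-96-5p had 0.89, 0.85 and 0.847, and those for miR-182-5p had 0.775, 0.833 and 0.763. All of these values share the libraries, their scaling and their depth, and they describe likeness only.

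Other epithelial miRNAs linked to ZEB1 were scarce in these cells. Of 7 listed (miR-200a-3p, miR-200b-3p, miR-200c-3p, miR-141-3p, miR-429, miR-203a-3p and miR-205-5p), 6 were found under these names and 5 could be tested. The 6 summed to 50.02 to 85.8 CPM per library, against 3053 to 14385 CPM for the 3 cluster members. miR-200a-3p had the highest mean, 24.7 CPM, and miR-205-5p the lowest, 0.11 CPM. In edgeR 0 of 5 passed at 3 h and 0 of 5 at 24 h, with median log2 fold changes of 0.16 and -0.03. 1 of 5, miR-200c-3p, had an unadjusted p under 0.05 at 3 h (log2 fold change -1.24) and 0 of 5 did at 24 h. With DESeq2 and limma, 0 of 5 passed at these times. Their median at 12 h was 0.38, as a description.

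The same chromosome band, 7q32, holds further miRNAs, among them miR-29a and miR-335. Of 10 listed, 9 were found and 7 could be tested, and 0 of 7 passed at 3 or 24 h of PA in edgeR, with median log2 fold changes of -0.06 and -0.24. The most abundant was miR-29a-3p, a repressor of collagen genes, with a mean of 55039 CPM and a log2 fold change of -0.08 ± 0.13 at 24 h. miR-29b-3p, which a second locus on another chromosome also produces, averaged 1292 CPM and had -0.24 ± 0.18. The arms of miR-335 had values of opposite sign at 24 h, 0.52 ± 0.24 for miR-335-5p and -0.94 ± 0.31 for miR-335-3p (edgeR adjusted p = 0.231 and 0.0848). These were the 2 of 7 with an unadjusted p under 0.05 at 24 h, against 0 of 7 at 3 h. With DESeq2 0 of 7 passed at either time, and with limma 1 of 7, miR-335-3p, did at 24 h. In DMSO 12 h against the other DMSO times the log2 values were -0.40 ± 0.11 for miR-29a-3p, -0.74 ± 0.15 for miR-29b-3p, -0.66 ± 0.21 for miR-335-5p and -0.63 ± 0.23 for miR-29a-5p. The other entries had -0.03 ± 0.37 (miR-29b-1-5p), 0.17 ± 0.24 (miR-335-3p) and 1.43 ± 0.90 (miR-129-5p). The means of these entries were 20.1 CPM (miR-29b-1-5p), 24.7 CPM (miR-335-3p) and 2.83 CPM (miR-129-5p), against 59.5 CPM for miR-29a-5p. The most abundant entries of this band were lower in DMSO 12 h, as the members were, and a link between these was not tested.

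Several technical measures varied between the libraries, and their part in the results was not tested. Depth was the first. In 6 of the 7 pairs the shallower library had the lower CPM of each of the 3 members, DMSO 3 h being the exception. The share of all entries with this pattern was not counted, and the DMSO 24 h pair hardly differed in depth (2302554 and 2230573 counts). DMSO 12 h B was the shallowest library of the series (1032391 counts). DMSO 12 h A had 1710798 counts, against 1550026 and 1131473 in DMSO 0 h and 1236935 in PA 24 h B. Base composition was the second. The members are 40.9% (miR-183-5p), 39.1% (miR-96-5p) and 41.7% (miR-182-5p) G + C. In DMSO 12 h against the other DMSO times, the median log2 difference of tested miRNAs was -0.26 below 40% G + C (133 miRNAs), -0.13 from 40 to 50% (191), 0.02 from 50 to 60% (173) and 0.33 at 60% or more (100). The value of miR-96-5p, -1.66, was below the 10th percentile of its class (-0.99), and those of miR-183-5p and miR-182-5p were within the 10th to 90th percentiles of theirs (-0.996 to 0.746). miR-1271-5p, at 54.5% G + C, had -0.60, in a class with a 10th percentile of -0.78.

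For PA over DMSO at 12 h the class medians ran the other way, 0.32, 0.05, -0.08 and -0.36 in the same order. At 24 h they were -0.13, 0.04, -0.03 and -0.10 with no steady order along G + C. The third measure was a list of 13 entries whose sequences lie in tRNA, rRNA or other small RNAs, a sign of RNA quality. Their sum was 5944 and 3466 CPM in DMSO 12 h, 6710 and 11324 in PA 12 h, 8640 and 6971 in DMSO 24 h, and 8892 and 10911 in PA 24 h, most of it miR-4454 (mean 5094 CPM). The sum was 4029 to 4719 CPM in the 4 libraries of 3 h, with 5135 and 6280 in DMSO 0 h. Its means were 4705 CPM in DMSO 12 h, 4110 in DMSO 3 h, 9017 in PA 12 h and 9901 in PA 24 h. The members summed to means of 3618, 7945, 11253 and 11422 CPM in the same groups. How the sums relate was not tested. At 3, 12 and 24 h the PA sums of the list were above its DMSO sums of the same time. In edgeR, 0 of its 9 tested entries passed at 3 or 24 h and 0 had an unadjusted p under 0.05. With DESeq2 or limma, 0 passed.

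**Figure D4:**
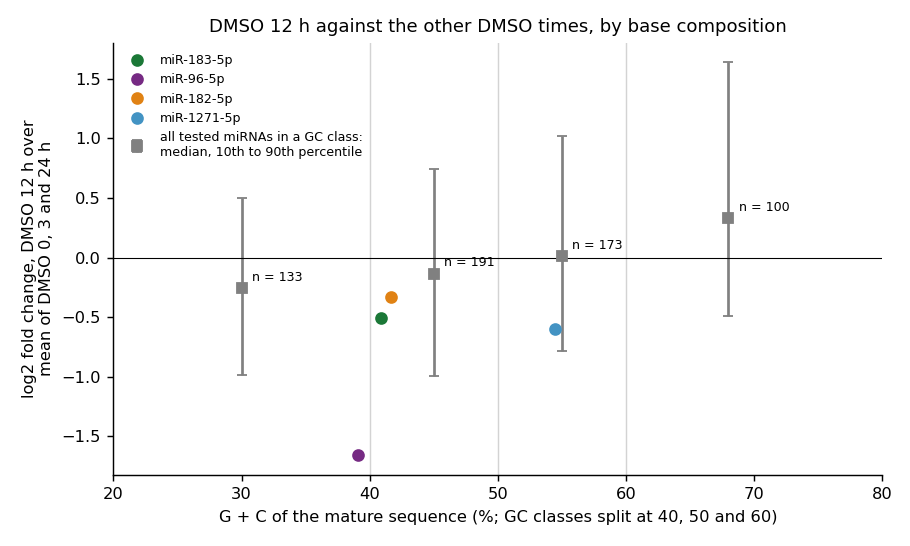
Log2 difference of DMSO 12 h from the mean of DMSO at 0, 3 and 24 h (y axis) against the G + C content of the mature sequence in percent (x axis). Grey squares and bars are the median and the 10th to 90th percentiles of all tested miRNAs with a sequence in each of 4 G + C classes, coloured points the 3 members and miR-1271-5p. miR-96-5p, at -1.66, lies below the bar of its class.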

How the data were processed

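Mature miRNA expression was measured in 14 libraries of PANC-1 cells. For each entry and library, the deposited files give a whole-number read count and a TPM value. The deposited TPM values are those counts scaled to a fixed library total, with no length correction. The GRCh38 build and the tools edgeR, Bowtie and bcl2fastq are named, per the submitters' processing notes. Their roles and versions, the miRNA annotation and the handling of reads that match several entries are not given in the sources used here, so reads shared by near-identical entries may have been split. The value columns were matched to libraries by title, and 0 were left over.

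The test was edgeR 4.0.16 in R 4.3.3 (robust quasi-likelihood fit, TMM scaling) after filterByExpr by group (minimum count 10, minimum total 15), all 14 libraries in 1 fit by group without a replicate block. Benjamini-Hochberg adjustment ran over the 810 tested entries, with a threshold of 0.05. Standard errors come from this fit. Correlations used log2 CPM with a prior count of 2, and ratios an offset of 0.5 counts. DESeq2 1.42.0, limma 3.58.1 on log2(TPM + 1), other scalings, filters and subsets of libraries were alternatives. The code was tested on simulated counts. Sequences were found for 597 of the 682 named entries tested (87.5%).

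Named entries were the members, their opposite arms, entries with a member's seed, up to 4 examples per list with those that passed, and the 3 entries most correlated with each member. The members and lists were chosen with earlier results of these data known.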

Additional observations from a re-analysis of the deposited data

How the results depend on the processing

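For the 3 members, 10 alternatives were run for each of the 6 tested comparisons. At 24 h of PA, miR-183-5p (log2 fold change 0.77, adjusted p = 0.0506 in edgeR) passed with median-ratio size factors (0.81, adjusted p = 0.0387), no filter (0.75, adjusted p = 0.00835), a minimum count of 50 (0.81, adjusted p = 0.0427), no 12 h libraries (0.82, adjusted p = 0.00877) and DESeq2 (0.81, adjusted p = 0.0111). It did not pass in the other 5 (adjusted p up to 0.105). Leaving out each library in turn gave 0.54 to 1.01 (adjusted p 0.0228 to 0.279), where a group's lone library is assumed to vary like the other groups, and it passed without DMSO 0 h A, without either library of DMSO 12 h or PA 12 h, and without PA 24 h B. With only the groups compared, miR-96-5p passed in DMSO at 3 h (0.59) and 24 h (0.58) against 0 h. In the remaining comparisons the call did not change, though values near 0 changed sign, such as miR-96-5p at 3 h (-0.29 to 0.10) and miR-182-5p in the difference between times (-0.02 to 0.44) with a library left out. The cause of these shifts was not tested. Scaling by total counts moved the median of all entries by -0.18 at 24 h and -0.15 in DMSO at 3 h. The miR-183-5p value at 24 h was then 0.58, against a median of -0.19 over all entries.

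With the library letter as a replicate block, the PA effects at 24 h were 0.78 (miR-183-5p), 0.48 (miR-96-5p) and 0.28 (miR-182-5p), and no call changed. Whether libraries of the same letter share a culture or batch is not known. Of 21 correlations between groups of the A minus B differences, 1 was over 0.1 (range -0.165 to 0.114). Counting noise in scarce entries lowers such correlations, so they do not settle this. Counts of passing entries ran from 1 to 3 (2 reported) at 3 h, 12 to 81 (54) at 24 h, 5 to 27 (11) for the mean, 3 to 21 (10) for the difference, 0 to 17 (0) in DMSO at 3 h and 10 to 72 (29) in DMSO at 24 h. At 24 h it was 12 without DMSO 24 h A, 13 without DMSO 24 h B and 31 without PA 24 h B. The 12 h descriptions for miR-96-5p ran from 2.06 to 2.86, for miR-183-5p from 0.96 to 1.57 and for miR-182-5p from 0.49 to 0.69 with a library left out.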
